A study of Mus musculus with 2 samples.

Results

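The collagen genes are the mouse genes named Col, a chain number, the letter a and a further number, and a gene was a member when its symbol had that form and nothing else. The annotation held 44 of them. Of the 15371 annotated genes with at least 1 long read in either library, 33 were collagen genes: all 33 had a read in replicate 1 and 28 had one in replicate 2. The tissue was gastrocnemius, the large calf muscle, from female mice of the hybrid strain B6CASTF1/J at an age of 2 months, bought from The Jackson Laboratory, with no treatment or engineered allele named in the labels. Replicate 1 was animal 3 and replicate 2 was animal 4, and each library was made from 2 µg of total RNA with added spike-in RNA. The labels give both libraries 1 donor identifier, so that the 2 animals are known only by their animal numbers. With 1 group, every test below compares these 2 libraries by their reads and not animals as a population, and its p-value covers counting error alone.

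Collagens are the main proteins of connective tissue. Each chain carries a long run of 3-residue repeats that begin with glycine, and chains wind in threes into a triple helix that is modified and folded in the endoplasmic reticulum before export. Fibrillar collagens (types I, III, V and XI among others) form the cable-like fibrils of the sheaths around muscle fibres and of tendon. Type IV collagen forms the sheet of the basement membrane, which coats each muscle fibre and capillary. FACIT collagens (fibril-associated collagens with interrupted triple helices) sit on fibrils, and type VI forms beaded filaments next to the basement membrane. In muscle, fibroblasts are a main source of these RNAs, and fewer cells of a type cannot be told apart from less RNA per cell in a bulk sample.

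The triple helix is visible in the gene structure, because many collagen exons are 54 bases long and code for whole glycine repeats. In the 33 collagen genes with reads, 376 of 1514 internal coding exons (24.8%) were exactly 54 bases long, against 0.491% of those in all other coding genes. Of these 376 exons, 363 (96.5%) had a glycine codon at the start of every 3-codon repeat, against 89 of 758 exons of 54 bases (11.7%) in other genes. In both comparisons the other genes include the 11 collagen genes without reads, so these are not shares of non-collagen genes alone. One such exon from each of the 3 collagen genes with the most reads is shown here from the GENCODE M21 transcripts, 5′ to 3′, with the glycine codon that opens each repeat in capitals. They are the first exons of this kind in Col3a1 (chr1:45325360-45325413, plus strand), Col1a1 (chr11:94939904-94939957, plus strand) and Col1a2 (chr6:4515481-4515534, plus strand) on mm10.
Col3a1 exon 6: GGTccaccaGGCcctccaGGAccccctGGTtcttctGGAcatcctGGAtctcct
Col1a1 exon 8: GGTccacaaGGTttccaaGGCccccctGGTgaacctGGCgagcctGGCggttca
Col1a2 exon 8: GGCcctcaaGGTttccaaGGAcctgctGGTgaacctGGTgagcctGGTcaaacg
The Col1a1 and Col1a2 exons share 42 of 54 bases (77.8%). Both code for the matching stretch of the chains that wind together in type I collagen.

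The results turn on several much shorter exons. They are shown in capitals between 24 bases of each neighbouring exon, again from the annotated transcripts. Exons 2 and 3 of Col1a2 (11 bases at chr6:4508335-4508345 and 15 bases at chr6:4508940-4508954), exons 6 and 7 of Col6a1 (21 bases each, at chr10:76721263-76721283 and chr10:76721088-76721108, minus strand) and exon 29 of Col6a1 (9 bases at chr10:76712865-76712873) were held by none of the reads that spanned them. Exon 3 of Col5a2 (14 bases at chr1:45438870-45438883, minus strand) was held by all reads that spanned it.
Col1a2 exons 1 to 4: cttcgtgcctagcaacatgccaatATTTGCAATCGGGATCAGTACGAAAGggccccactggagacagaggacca
Col6a1 exons 5 to 8: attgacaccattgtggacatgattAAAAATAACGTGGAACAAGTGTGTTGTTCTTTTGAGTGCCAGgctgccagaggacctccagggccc
Col6a1 exons 28 to 30: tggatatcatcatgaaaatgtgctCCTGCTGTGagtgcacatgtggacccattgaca
Col5a2 exons 2 to 4: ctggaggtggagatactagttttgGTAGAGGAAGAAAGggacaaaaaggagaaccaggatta
The reads over these exons are given further on, with the other results on transcript structure.

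The deposited tables held 1349298 reads in replicate 1 and 1359923 in replicate 2, over 85714 and 92049 transcript models, which are exon structures to which reads were assigned. The 6 muscle fibre markers, such as Acta1 (74992 and 68399 reads) and Ckm (60801 and 66599 reads), were all present, and 7 of 8 cartilage and bone markers had 0 reads in both libraries. Of the 6 muscle fibre markers, 5 were called higher in replicate 2 and Acta1 lower, with a fold of 1.02 in their summed level. The libraries also differed in markers of other tissue: the summed reads of 8 adipocyte markers were 1542 in replicate 1 and 180 in replicate 2, with 7 of 8 called lower, and those of 8 Schwann cell markers were 919 and 132, with 6 of 6 tested called lower. Among the adipocyte markers, Retn had 21 reads in replicate 1 and 0 in replicate 2. The summed reads of 10 tendon markers were 499 and 899, with 5 of 9 tested called higher.

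Collagen genes took 2709 reads in replicate 1 and 2574 in replicate 2. That is 0.201% (95% Wilson interval 0.193% to 0.208%) and 0.189% (0.182% to 0.197%) of all reads, or 0.195% ± 0.00813 (SD, n = 2). Intervals and limits here and below cover counting error only. Fibrillar collagens made up 79.5% ± 0.875 (SD, n = 2) of collagen reads, basement membrane collagens 12.4% ± 0.744, FACIT collagens 2.41% ± 0.435 and all others 5.65% ± 0.304. Among the others, the beaded filament chains of type VI held 3.84% and 4.12% of collagen reads. Col1a1, Col3a1 and Col1a2 together held 74.3% of collagen reads in replicate 1 and 75.9% in replicate 2. The other genes shared the rest, and the makeup by class was near alike in both libraries.

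**Figure D1:**
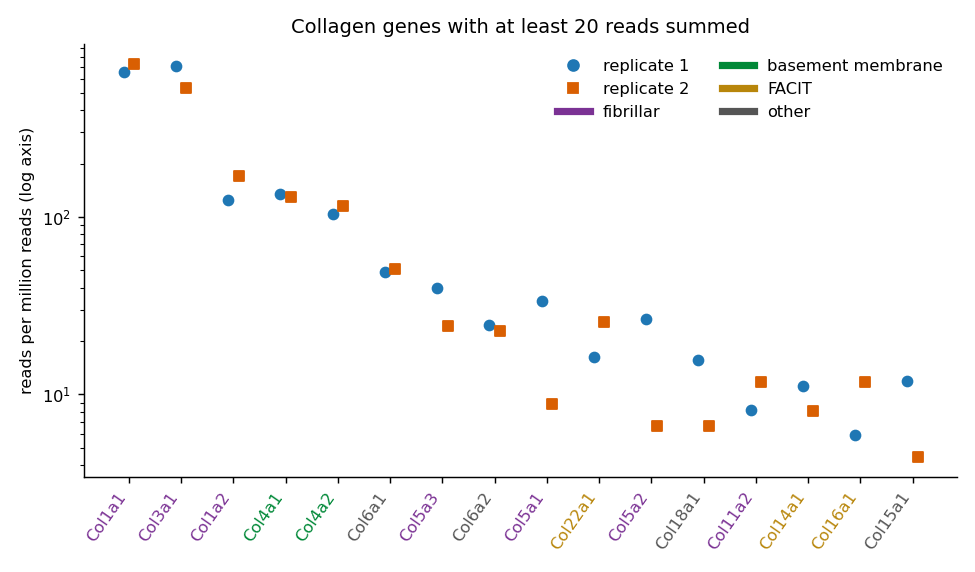
Level in reads for every 1000000 reads of the library, on a log axis, of the 16 collagen genes with at least 20 reads summed, in replicate 1 (circles) and replicate 2 (squares), ordered by mean, with gene names coloured by class. Col1a1 and Col3a1 stand at 535 or more in both libraries, while Col5a1 and Col5a2 show the widest gaps between the libraries.

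Col1a1, which codes for the alpha 1 chain of type I collagen, had 890 reads in replicate 1 and 995 in replicate 2. Col3a1, whose product forms type III collagen of the finer fibrils around muscle fibres, had 955 and 727. Scaled to counts per 1000000 reads of the library (CPM), these are levels of 660 and 732 for Col1a1 and 708 and 535 for Col3a1, so that Col3a1 was the higher gene in replicate 1 and Col1a1 in replicate 2. A long read stands for 1 molecule and was not divided by length. By the mean of both libraries, the first 6 genes kept their order per length. In CPM per kilobase of reference transcript, the levels were 117 ± 8.59 for Col1a1 and 112 ± 22.0 for Col3a1 (SD, n = 2). These top levels did not differ beyond the spread between libraries. On the same scale, Col1a2 followed at 27.6 ± 5.90, Col4a1 at 19.9 ± 0.505, Col4a2 at 17.0 ± 1.28 and Col6a1 at 12.2 ± 0.315 (SD, n = 2). The ranges of the 2 libraries did not overlap between Col1a2, Col4a1, Col4a2 and Col6a1 on this scale. The next genes, Col5a3 at 5.25 ± 1.82 and Col6a2 at 5.08 ± 0.253, did overlap.

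Between the libraries, 19 collagen genes had at least 10 reads summed and entered the two-sided Fisher's exact test, which sets the reads of a gene against the rest of the library and was adjusted over all 9341 genes tested. Of these 19 genes, 1 was higher and 3 were lower in replicate 2, and 15 were not called. Over all genes, 7.82% were called, 4.25% higher and 3.56% lower in replicate 2. The median log2 fold of replicate 2 over replicate 1 was -0.05 over the tested collagens and -0.01 over all genes. The 4 called genes all belong to the 7 fibrillar collagens tested, and none of the 2 basement membrane, 4 FACIT and 6 other genes tested was called.

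Col3a1 had 28.2% of collagen reads in replicate 2 against 35.3% in replicate 1, a fold of 0.755 in CPM (95% interval 0.686 to 0.832, Fisher's exact adjusted p = 6.61e-07). Col1a2, which codes for the alpha 2 chain of type I collagen, had 169 reads in replicate 1 and 231 in replicate 2, with a fold of 1.36 (1.11 to 1.65, Fisher's exact adjusted p = 0.0373). Col1a2 lost its call when mitochondrial and spike-in reads were left out (adjusted p = 0.0615) and when only spliced models were counted (adjusted p = 0.0989). Col1a1 did not pass the test, with a fold of 1.11 (1.01 to 1.21, Fisher's exact adjusted p = 0.185).

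Type V collagen, a minor component built into the core of type I fibrils where it limits their width, included the lowest folds among the tested collagens, those of Col5a1 and Col5a2. Col5a1 had 45 reads in replicate 1 and 12 in replicate 2, with a fold of 0.265 (0.141 to 0.495, Fisher's exact adjusted p = 2.70e-04). Col5a2 had 36 and 9 reads, a fold of 0.248 (0.121 to 0.507, Fisher's exact adjusted p = 0.00115). Col5a3, which codes for a further type V chain, had 54 and 33 reads, a fold of 0.606 that did not pass the adjusted test (0.395 to 0.932, Fisher's exact adjusted p = 0.178). Col5a3 thus made up 40.0% of type V reads in replicate 1 (32.1% to 48.4%) and 61.1% in replicate 2 (47.8% to 73.0%). Col5a1 and Col5a2 were the only collagens still called when edgeR's exact test was given a preset dispersion of 0.01, with adjusted p = 0.00939 and 0.0205. With annotated matches alone neither was called: Col5a2 had a log2 fold of -2.54 with a Fisher's exact adjusted p of 0.128, and Col5a1, with 7 and 1 such reads, fell below the minimum of 10 reads for a test. Under edgeR's exact test Col3a1 had an adjusted p of 0.582 and Col1a2 of 0.653. Col5a2 lies next to Col3a1 on chromosome 1, at chr1:45374321-45503282 and chr1:45311538-45349706, on opposite strands.

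Col11a2, which codes for a chain of the minor fibrillar collagen XI, had 11 reads in replicate 1 and 16 in replicate 2 and was not called. The remaining fibrillar genes were near the limit of detection: Col11a1 had 5 and 4 reads, Col2a1, the collagen of cartilage, 2 and 3, and Col24a1 3 and 0. Col27a1 had 0 reads in both libraries.

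**Figure D2:**
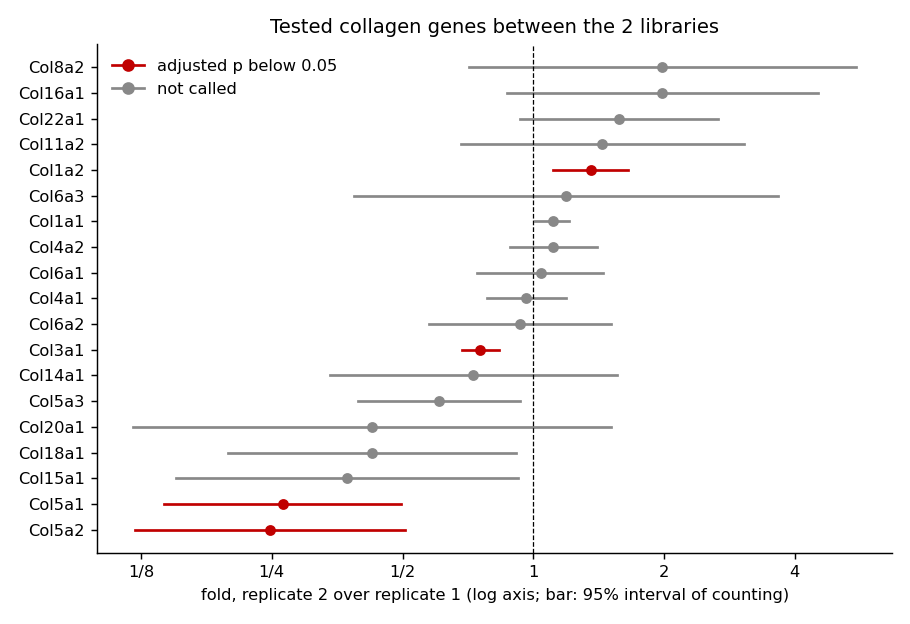
Fold of CPM in replicate 2 over replicate 1, on a log axis, for the 19 tested collagen genes, with 95% intervals of counting error as bars and the 4 called genes in red. Col5a1 and Col5a2 lie near a fold of 1/4, and most other intervals include 1.

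Neither basement membrane chain of the common form was called. Col4a1 had 181 reads in replicate 1 and 176 in replicate 2, with a fold of 0.965 (0.784 to 1.19), and Col4a2 had 140 and 157, a fold of 1.11 (0.886 to 1.40). These genes lie head to head on chromosome 8, with starts that overlap at chr8:11312805-11312826, and their chains join in the common form of type IV collagen. Col4a1 made up 56.4% (50.9% to 61.7%) and 52.9% (47.5% to 58.2%) of the reads of this pair. These shares count reads of models with a single exon, which were 31 and 46 for Col4a2 and 2 and 4 for Col4a1. The share of Col4a1 over spliced reads alone was not calculated, so the pair is not shown to be near equal. The chains typical of kidney and other specialised basement membranes were barely seen: Col4a4 had 1 read and 0 reads, Col4a5 had 1 in each library, and Col4a3 and Col4a6 had 0.

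None of the type VI chains was called. Col6a1 had 66 reads in replicate 1 and 69 in replicate 2, with a fold of 1.04 (0.741 to 1.45), and Col6a2 had 33 and 31, with a fold of 0.932 (0.574 to 1.51). Col6a3, the longest chain with a reference transcript of 10106 bases, had 5 and 6 reads. Mutations in these genes cause muscle disease in people, and the chains assemble together before export. Of the reads of these 3 genes, Col6a1 held 63.5% and 65.1%, Col6a2 31.7% and 29.2%, and Col6a3 4.81% and 5.66%. The reference transcripts of Col6a1 and Col6a2 have 4100 and 4653 bases. Whether the greater length of Col6a3 lowered its read number was not tested, so these shares are not shown to be shares of RNA molecules. Col6a4, Col6a5 and Col6a6 had 0 reads in both libraries.

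Col22a1, a FACIT collagen known from the junction of muscle and tendon, had 22 reads in replicate 1 and 35 in replicate 2, with a fold of 1.58 (0.932 to 2.67, Fisher's exact adjusted p = 0.432). Col14a1 had 15 and 11 reads and Col16a1 had 8 and 16. Neither of these FACIT genes was called. Col20a1 had 7 and 3 reads, Col12a1 2 and 4, and Col9a1 3 and 1, while Col19a1, Col9a2 and Col9a3 had 0.

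The multiplexins Col18a1 and Col15a1 code for collagens of the basement membrane zone. Col18a1 had 21 reads in replicate 1 and 9 in replicate 2, with a fold of 0.425 (0.198 to 0.911, Fisher's exact adjusted p = 0.200). Col15a1 had 16 and 6, a fold of 0.372 (0.150 to 0.921, Fisher's exact adjusted p = 0.222). Both intervals lie below 1, but neither gene passed the adjusted test. The remaining genes had few reads. Col8a2 had 5 and 10 reads, Col8a1 3 and 4, Col23a1 4 and 0, Col7a1, the anchoring fibril collagen of skin, 2 and 1, Col13a1 1 and 2, Col26a1 1 and 2, Col17a1 1 and 0, and Col28a1 1 and 0. Col10a1 and Col25a1 had 0. A count of 0 allows a level of up to 2.22 CPM in replicate 1 and 2.21 in replicate 2, so low expression of the 11 genes without reads was not detectable at this depth.

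Cell type markers moved with some of these differences, and their part in the results was not tested. Beside the fall of Col3a1, Col5a1 and Col5a2, the summed level of the 8 adipocyte markers went from 1143 to 132 CPM and that of the 8 Schwann cell markers from 681 to 97.1. The 12 fibroblast markers went from 8985 to 6070 reads, with Gsn (7984 and 5063) and Pi16 (42 and 16) called lower and Dcn (525 and 552), Smoc2 (162 and 201) and Cd34 (102 and 74) not called. Gsn is also made by muscle fibres, and without it the other 11 fibroblast markers summed to 1001 and 1007 reads. Of 12 endothelial markers, Cav1 (151 and 96), Fabp4 (169 and 54) and Vwf (31 and 10) were called lower. The other 9, Esam (64 and 57) among them, were not called. Of 10 smooth muscle and pericyte markers, Acta2 (92 and 38), Myl9 (88 and 26), Tagln (54 and 24) and Cnn1 (33 and 3) were called lower. The other 6, Rgs5 (272 and 296) among them, were not called. Beside the rise of Col1a2, the tendon markers Fmod (223 and 470), Chad (40 and 77), Tnc (13 and 40), Cilp2 (20 and 45) and Kera (7 and 25) were called higher, and Thbs4 (119 and 152) was not.

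The proteins that modify, fold, cut and link collagen chains are coded outside the Col genes. The counts called in the lists that follow stand against 4.25% higher and 3.56% lower over all genes, and lists with 1 call among 11 to 14 genes lie near the 7.82% called in either direction. Of 14 tested genes for proline and lysine modification, 1 was lower in replicate 2: P4hb, a subunit of prolyl 4-hydroxylase, with 394 and 308 reads (Fisher's exact adjusted p = 0.0160). The most abundant other genes of the list, Colgalt1 (110 and 108), P4ha2 (93 and 119) and P4ha1 (62 and 57), were not called. Of 8 tested genes for folding and export, Serpinh1, the collagen chaperone HSP47, rose from 190 to 260 reads and Sec23a, a coat protein of export vesicles, from 164 to 229, while Sparc, a secreted collagen-binding protein, fell from 562 to 416 (Fisher's exact adjusted p = 0.0227, 0.0243 and 7.56e-05). Tmem38b (87 and 119) was not called. None of 5 tested propeptide cleavage genes was called, with Pcolce at 109 and 80, Adamts2 at 54 and 28 (Fisher's exact adjusted p = 0.0501), Bmp1 at 28 and 27 and Furin at 19 and 20 reads. None of 3 tested cross-linking genes was called, with Lox at 26 and 26, Loxl1 at 16 and 11 and Loxl3 at 6 and 7 reads.

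Of 12 tested proteoglycans and other regulators of fibrils, Fmod and Kera rose and Bgn fell (80 and 45 reads), while Dcn and Thbs4 were not called. Of 7 tested genes of collagen breakdown, Timp2, an inhibitor of the proteases, fell from 187 to 127 reads, and Mmp2 (82 and 92), Timp4 (43 and 53) and Timp3 (51 and 39) were not called. Of 5 tested receptor genes none was called, with Itgb1 at 214 and 237, Adgrg1 at 53 and 65, Ddr1 at 16 and 17 and Itga11 at 9 and 6 reads. Of 12 tested regulators of collagen transcription and translation, Smad3, which carries the TGF-beta signal, rose from 60 to 112 reads, and Tgfb3 (90 and 122), Nfyb (44 and 53) and Ccn2 (36 and 40) were not called. Of 11 basement membrane partners of type IV collagen, Lamb2, a laminin chain, rose from 202 to 268 reads, and Lamc1 (61 and 62), Lamb1 (30 and 34) and Nid1 (27 and 16) were not called. Of 7 tested genes with a collagen domain outside the Col names, the adipocyte hormone gene Adipoq fell from 80 to 5 reads, and C1qa (22 and 21), Colq (17 and 25) and C1qc (19 and 22) were not called. The median log2 folds of these 10 lists lay between -0.40 for breakdown and 0.46 for folding and export, against -0.01 over all genes.

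The structure of the reads varied widely between collagen genes. Reads were classed as annotated matches (all splice junctions of an annotated transcript), as 3′ parts (the 3′ end of an annotated chain of junctions with the 5′ end missing), as new combinations of annotated sites, as having an unannotated splice site, or as genomic (within the gene with none of these patterns). Of collagen reads, 63.4% and 62.9% were annotated matches in replicates 1 and 2, against 65.9% and 65.3% over all genes. The 3′ parts made up 27.8% (26.2% to 29.6%) and 24.6% (22.9% to 26.3%) of collagen reads, against 6.42% and 7.10% over all genes. Collagen transcripts are long and have many exons. Among genes with a reference transcript in the length range of the 16 described collagens, 4100 to 8809 bases, 3′ parts were 16.3% in both libraries, and with at least 28 exons as well they were 33.0% and 31.6%. Pooled over reads, the collagen share thus lay between these 2 backgrounds. The pool rests mostly on Col1a1, with 18.4% and 13.4% in 3′ parts, and Col3a1, with 11.5% and 8.25%. With each of the 16 described collagens weighted alike, the mean share was 43.0%, above both backgrounds, which are pooled over reads.

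The 3′-part share was tested in the 9 collagen genes with 20 reads or more in both libraries. Col5a1 and Col5a2, with 12 and 9 reads in replicate 2, were not among these. By Fisher's exact test with adjustment the share differed between libraries in 44 of 5025 genes (0.876%), with 0.239% lower in replicate 2. None of the 9 collagen genes was called. At an unadjusted Fisher's exact p under 0.05 there were 3, against 4.44% of all genes tested: Col1a1 (18.4% and 13.4%, p = 0.00289), Col3a1 (11.5% and 8.25%, p = 0.0277) and Col1a2 (90.5% and 83.1%, p = 0.0394). The share was lower in replicate 2 in 8 of the 9 genes, Col22a1 being the exception. How many of all 5025 genes were lower was not counted. The median difference, replicate 2 minus replicate 1, was -5.06 points over the 9 collagen genes and 0 over all genes tested. The median share itself was 42.1% and 38.2% over the 9 collagen genes, but 2.99% and 2.78% over all genes tested, which leaves little room for a fall. These median differences are thus not set at like shares, and whether the shift is particular to collagens was not tested.

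**Figure D3:**
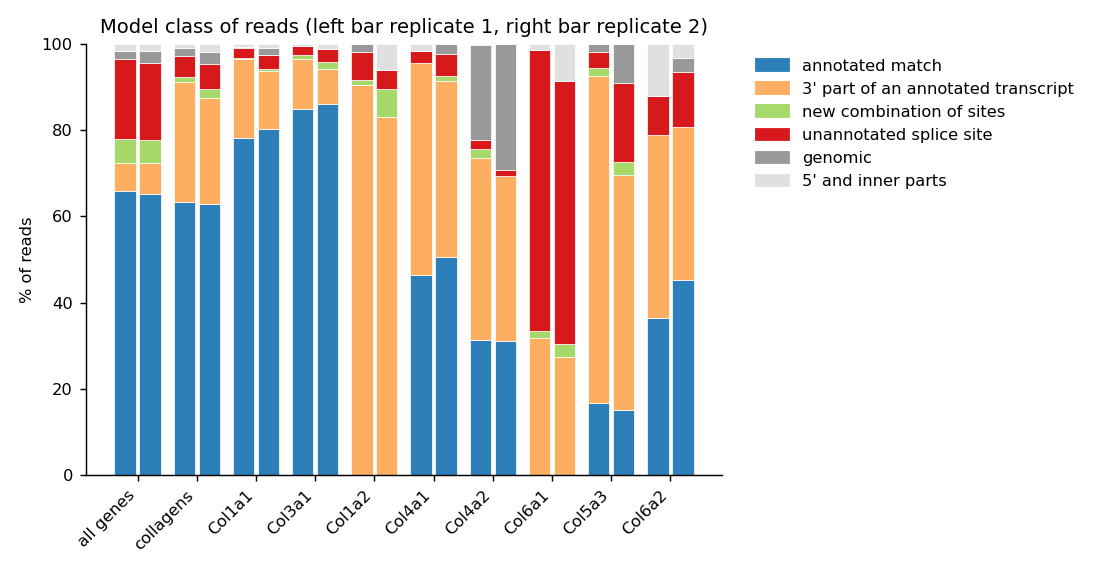
Share of reads in each model class, in percent, for all genes, all collagens and the 8 collagen genes with the highest mean level, with replicate 1 as the left bar and replicate 2 as the right bar of each pair. Col3a1 and Col1a1 are mostly annotated matches, while Col1a2 and Col6a1 have none in either library.

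Annotated matches made up 85.0% and 86.0% of Col3a1 reads and 78.2% and 80.3% of Col1a1 reads, over 51 exons in each gene. They made up 46.4% and 50.6% for Col4a1 (52 exons) and 31.4% and 31.2% for Col4a2 (48 exons). In Col4a2, genomic reads were a further 22.1% and 29.3%. Col1a2 had 0 annotated matches of 169 and 231 reads, which allows a share of up to 1.78% and 1.30%, and Col6a1 had 0 of 66 and 69, which allows up to 4.55% and 4.35%. Col16a1 also had 0, of 8 and 16 reads, which allows up to 37.5% and 18.8%. In all, 18 of the 33 collagen genes with reads had an annotated match.

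Reads that reached the first exon of the reference transcript, the longest coding one, were 68.0% and 69.5% of collagen reads, against 81.1% and 80.1% over all genes. The share was 87.7% and 90.4% for Col3a1, 80.4% and 83.9% for Col1a1, 65.2% and 62.3% for Col6a1 and 48.6% and 54.5% for Col4a1. In Col1a2 it was 7.10% and 7.79%, or 12 and 18 reads. Coverage of Col1a2 fell step by step: 75.7% and 71.0% of its reads covered exon 40, 54.4% and 49.4% exon 30, 39.1% and 35.9% exon 20, and 20.1% and 22.1% exon 10. Col1a1, of like length and exon number, kept 83.0% and 86.4% of its reads at exon 10. The low share of Col18a1, with 9.52% and 22.2% at exon 1, partly counts reads that match its 42-exon transcript Col18a1-202 (12 and 3 annotated matches), which begins at a first exon upstream of the reference.

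**Figure D4:**
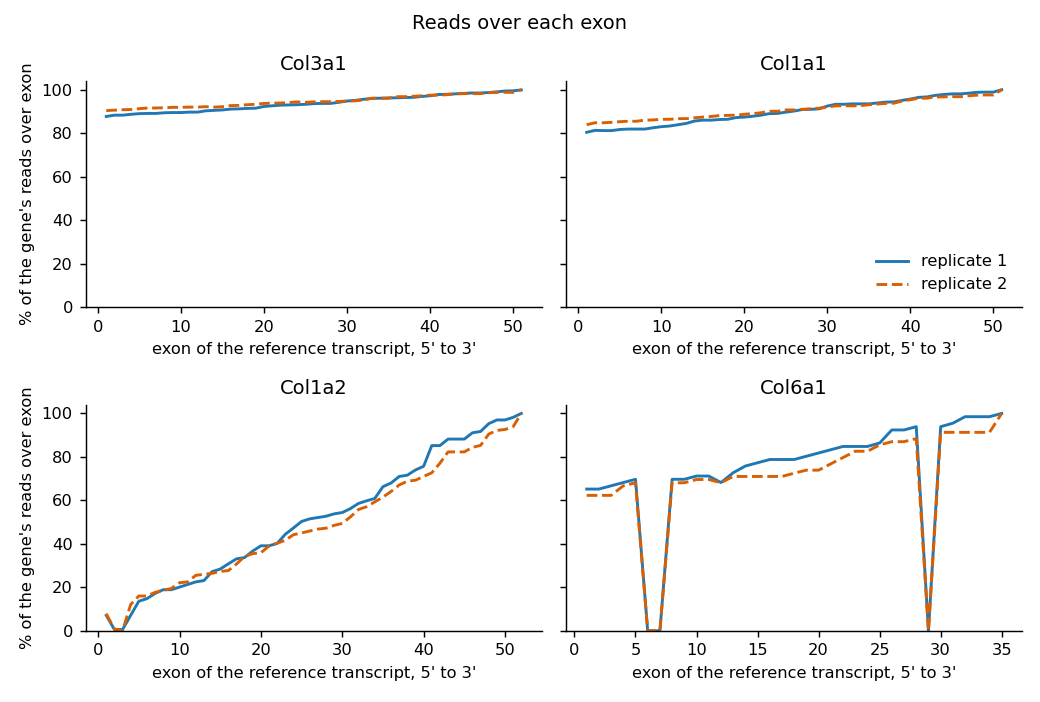
Share of a gene's reads that cover each exon of its reference transcript, in percent, from the 5′ to the 3′ exon, for Col3a1, Col1a1, Col1a2 and Col6a1, with replicate 1 solid and replicate 2 dashed. Col3a1 and Col1a1 stay above 80% throughout, Col1a2 falls to 7.10% and 7.79% at exon 1, and Col6a1 drops to 0 at exons 6, 7 and 29.

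The ratio of the type I chains therefore depended on where reads began. Over all reads, Col1a1 had 5.27 reads per Col1a2 read in replicate 1 and 4.31 in replicate 2. Over 3′-part reads alone, the numbers were 164 and 153 in replicate 1 and 133 and 192 in replicate 2, a ratio of 1.07 and 0.693. Over spliced reads that began after exon 4 of the reference the ratio was 1.04 and 0.665, and after exon 25 it was 1.01 and 0.584. Col1a2 thus made up 16.0% (13.9% to 18.3%) and 18.8% (16.8% to 21.1%) of type I reads in all, but 49.0% (43.5% to 54.6%) and 60.1% (54.5% to 65.3%) of those that began after exon 4. These shares restate, for the pair, that Col1a2 had the larger share of 3′ parts. A comparison of Col1a2 with other genes by read number rests almost wholly on reads without a 5′ end, and the cause of this was not tested.

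Short exons stood apart. Among internal exons that every coding transcript of a gene holds and that at least 10 reads spanned, 21 of 22 exons of at most 15 bases were in 0 reads over all genes (95.5%), against 10.3% of those of 16 to 20 bases, 3.13% of 21 to 30 bases and 0.110% of 46 to 54 bases. Col1a2 and Col6a1 carry such exons, whose letters are shown above. In Col1a2, the spanning reads that went over exon 2 were 12 in replicate 1 and 18 in replicate 2, and all of them skipped it. Skipped means here and below that the model of the read has an intron over the exon. Over exon 3, 12 and 20 reads skipped it and 1 read in replicate 1 had changed ends there. Exons 2 and 3 together have 26 bases, which is not a multiple of 3. The most abundant Col1a2 model that reached exon 1 had 50 of the 52 exons and 4 and 13 reads.

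In Col6a1, the most abundant unannotated spliced collagen model, with 40 reads in replicate 1 and 39 in replicate 2, had 32 exons and 4090 bases in place of 35 exons and 4100 bases. It lacked exons 6 and 7 and had exon 8 longer by 37 bases at its 5′ side, a net difference of -5 bases. It also lacked exon 29 and had exon 28 longer by 4 bases at its 3′ side, again a net difference of -5 bases. Over all Col6a1 models, exons 6 and 7 were skipped in 46 of 46 and 47 of 47 spanning reads, and exon 29 in 62 of 62 and 61 of 61. Exons 8 and 28 had changed ends in the same reads. These exons were absent from the models of spanning reads in both libraries with no exception, and the cause was not tested. Whether the short exons of Col1a2 and Col6a1 are missing from the RNA or only from the models cannot be told from these data.

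Col5a2 stood on the other side. Its 14-base exon 3 was in all 14 reads of replicate 1 and both reads of replicate 2 that spanned it, and it was the 1 exon of at most 15 bases, of the 22 over all genes, that reads kept. Exons of 27 and 30 bases were kept as a rule: both of Col4a1 (exons 8 and 14) were in every spanning read of both libraries, as were exons 8, 14, 17 and 26 of Col18a1. In Col6a1 exons 11 and 12, of 27 bases each, were in 91.5% and 93.8% of spanning reads.

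**Figure D5:**
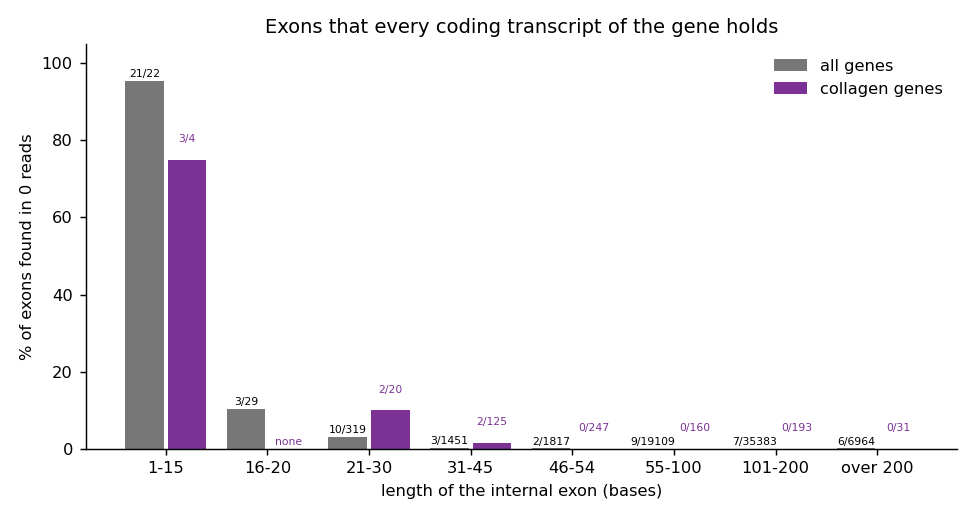
Share of internal exons found in 0 reads, in percent, by exon length in bases, for all genes (grey) and collagen genes (purple), with the number of such exons over the number tested above each bar. Exons of at most 15 bases were in 0 reads for 21 of 22 exons over all genes and for 3 of 4 in collagen genes, and the share falls steeply with length.

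Most collagen exons were in every spanning read or nearly every one. Of 309 internal collagen exons with at least 20 informative reads in each library, 216 were in every read, 90 were in more than 95% but not all, and 3 were in 0 reads, namely exons 6, 7 and 29 of Col6a1. None had an inclusion between 5% and 95%, against 1395 such alternative exons over all genes, of which 0.430% were called between libraries by Fisher's exact test. With at least 10 informative reads, 6 collagen exons fell in that range and none was called. Among them were exons 4, 8 and 9 of Col6a2 (for exon 9, 17 reads with it and 1 without in replicate 1, and 17 and 4 in replicate 2), exon 4 of Col1a2 (8 and 3, then 27 and 1) and an exon of 54 bases in Col22a1 (17 and 1, then 25 and 3). Reads that begin at an exon cannot skip it, and they were not left out of these counts. In Col1a2, a 3′ part of 49 exons that begins at exon 4 had 2 and 9 reads.

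Outside the annotated matches, which carry the ends of the annotation and not of the read, the 3′ ends of collagen models fell at few positions. In Col1a1, 92.3% and 82.1% of such reads ended 1195 bases before the annotated end. In Col3a1, 98.6% ended 690 bases before it in replicate 1 and 98.0% ended 688 bases before it in replicate 2. In Col1a2, 64.5% ended 535 bases and 69.7% ended 591 bases before the annotated end in replicates 1 and 2, while 32.0% and 30.3% ended at it. In Col6a1 all such reads ended at the annotated end, and in Col4a2 100% and 99.1% did. The most frequent unannotated end of Col1a2 and of Col3a1 fell on 1 base in each library and on a different base in the other, so that these are ends given to models and not shown to be ends of single reads. Among 636 spliced collagen models outside the annotated matches, 212 (33.3%) were seen in both libraries. After the Col6a1 model, the most abundant with at least 5 reads in each library were 3′ parts of Col1a2 with 5 exons (6 and 12 reads) and 11 exons (7 and 10) and of Col1a1 with 50 exons (8 and 8) and 13 exons (6 and 9).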

How the data were processed

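Long-read RNA sequencing of 2 gastrocnemius libraries was analysed. As deposited by the authors, the tables hold raw counts, the whole number of long reads per transcript model, with no normalization. Other deposited values are each model's exon number, length and coordinates. Per the file headers, models were made on mm10 with GENCODE M21 and carry the source name TALON. The sources used here name neither the aligner nor the read filters. No column of per-sample values was left unused.

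Counts were summed per gene and set against the library total. Genes with at least 10 reads summed were tested by two-sided Fisher's exact tests with Benjamini-Hochberg adjustment over all genes and a threshold of 0.05 (SciPy 1.17.1). 3′-part shares were tested in the same way where each library had 20 or more reads of a gene. edgeR's quasi-likelihood test was not used. With 1 group there is no comparison between groups, and setting the 2 libraries against each other leaves no residual degrees of freedom. Alternatives were the exact test of edgeR 4.0.16 with a preset dispersion of 0.01, and Fisher's exact test with library totals scaled by TMM factors. A replicate number names a library and pairs nothing. Exon letters came from the GENCODE M21 transcripts. Tests were tried on simulated data with known changes. The depth of 1349298 and 1359923 reads limits genes with few reads, and intervals are 95% Wilson intervals.

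The members and gene lists were chosen with earlier results of these data known. Described in full were collagen genes with at least 20 reads summed, and named were up to 4 most abundant members and every called member of each list, alternative collagen exons and up to 5 unannotated models. Protein sequences and alleles of the hybrid were not analysed here. One of the alternative collagen exons is not reported here.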

Additional observations from a re-analysis of the deposited data

Results flagged for a closer look

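Reads of models classed as antisense to annotated genes are no part of the counts above. Over collagen genes there were 8 such reads in replicate 1 and 37 in replicate 2. Of these, 2 and 16 lay over Col1a1, where the 16 reads of replicate 2 belonged to 1 unspliced model, and Col3a1 had 0 and 3. Antisense reads over all genes were 15936 (1.18%) and 39788 (2.93%), a fold of 2.48, against 4.59 over collagen genes. The difference was not tested. Neither a strand protocol nor the filter on reads is given in the sources used here.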

How the results depend on the processing

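No paired analysis was possible because there is 1 group, so that replicate numbers pair no samples. With 1 library left out in turn, the collagen share was 0.189% to 0.201%, the fibrillar share 78.9% to 80.1%, the 3′-part share 24.6% to 27.8%, the annotated-match share 62.9% to 63.4% and the share of reads at exon 1 68.0% to 69.5%. Counting spliced models alone gave a collagen share of 0.209% and a fibrillar share of 80.9%, and annotated matches alone gave a fibrillar share of 89.2%. With each gene weighted alike, the 3′-part share was 43.0% and the annotated-match share 32.8%, and over multi-exon models the latter was 65.5%. Without annotated matches, 15.9% of collagen reads reached exon 1. The 4 called collagens became 2 with annotated matches alone (Col3a1 was kept and Col1a1 gained, while Col1a2 has no such reads, Col5a1 too few to test, and Col5a2 a log2 fold of -2.54 with adjusted p = 0.128 by Fisher's exact test), 2 with edgeR's exact test (which called 1.85% of all genes), 3 without the reads of mitochondria and spike-ins, 3 with spliced models alone, 3 with a minimum of 1 read, and 5 by a fold past 2 with no test (13.3% of all genes). With TMM factors the count was 4 and with a minimum of 20 reads 4. With at least 10 informative reads there were 6 alternative exons in place of 0. Log2 folds near 0 changed sign in 3 cases: Col4a1 (0.13) and Col6a2 (0.27) with annotated matches alone and Col6a1 (-0.04) with spliced models alone. Of the single-gene values under the alternatives, 96 kept their direction and side of the threshold, 6 lost a call and 1 gained one. The cause of these shifts was not tested. At this depth, a gene with fewer than 10 reads summed has no test.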
